A study of Bos taurus with 24 samples.

Results

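Bovine muscle satellite cells kept in coculture with fibroblasts were compared before and 24 h after the medium that drives differentiation was given, in 4 libraries per group. These 8 libraries are part of a series of 24, which also holds satellite cells kept alone (monoculture) and a 72 h time in both cultures. The cells are wild type and come from the longissimus dorsi muscle. A mix of 3 satellite cell lines was plated at 8000 cells/cm2 with fibroblasts at passage 10, in plates with membrane inserts of 0.4 µm pores, and grown for 5 days in high glucose DMEM with 20% fetal bovine serum (proliferation). The 24 h group was then switched to high glucose DMEM with 10% horse serum. Fibroblasts were present in both groups, so the comparison is one of time and medium within coculture, and the fibroblasts went through the same switch. The labels give the RNA as that of satellite cells and do not say that the 4 libraries of a group come from separate cultures, so the p-values measure only the spread between these libraries, which may be technical.

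Satellite cells are the stem cells of skeletal muscle. They divide in rich serum. When growth factors are withdrawn they leave the cell cycle, switch on myogenic regulators such as MYOG, and fuse into myotubes that make sarcomere proteins. ID proteins block the myogenic regulators, BMP signals keep ID genes on, and cyclin D with CDK4 drives the cell cycle while growth factors last.

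The count table lists 11937 genes, each with at least 6 counts in every library used. Totals ran from 11.5 to 34.96 M counts in proliferation and from 16.8 to 22.2 M at 24 h. Replicate 2 of the 24 h group stood apart: 4.07% of its counts fell on nuclear ribosomal RNA genes, against 0.708% to 1.07% in the other 7 libraries, and it took an extreme place on the second principal component, which held 9.81% of the variance. The first component, with 58.0%, separated the 2 times. All proliferation libraries and 24 h replicates 1 and 2 were read in lane 6, and 24 h replicates 3 and 4 in lane 7. PAX7, MYF5, MYOD1, MYOG, MYMK and MYH3 are not among the genes listed, and only 5 of 19 satellite cell and myoblast markers are (among them ITGA7, PAX3, NCAM1 and DES). These markers and those that follow do not bear out the labelled cell type. The name satellite cells is kept here only because the labels give it. Of 26 markers of fibroblasts and fibro-adipogenic cells 21 are listed. Their summed level, led by collagens, was 65732 to 67014 CPM in proliferation and 88854 to 99833 CPM at 24 h (CPM, counts scaled to a common library total with factors for composition), while the 5 muscle markers summed to 202 to 220 and 204 to 232 CPM.

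Of the 11937 genes 5159 (43.2%) differed between 24 h and proliferation at an adjusted p under 0.05 in edgeR's quasi-likelihood test; 2504 (21%) were higher at 24 h and 2655 (22.2%) lower. Most of the changes were small, with a median size of 0.30 on the log2 scale among called genes, and 123 rises and 57 falls reached 2-fold. The 4 libraries of one time did not overlap the 4 of the other for 4741 genes (39.7%), 2333 higher (19.5%) and 2408 lower (20.2%). The balance of rises and falls depends on the scaling: 48.5% of called genes were higher with TMM factors and 21.7% (1303 higher, 4710 lower) with library totals alone, which moves the median gene from -0.01 to -0.13. Without replicate 2 of the 24 h group 4787 genes were called, 2318 higher and 2469 lower. With the lane 6 libraries alone 3494 were called, and with lane 7 alone at 24 h 4196. Of the 5159 genes 3408 were also called in the same direction with lane 6 alone, a fit on fewer of the same libraries.

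The largest rise by the naming rule was that of ANGPTL4, a secreted inhibitor of lipoprotein lipase. It read 16.9, 15.4, 13.1 and 15.7 CPM in the proliferation libraries and 111, 104, 107 and 115 CPM at 24 h, a log2 change of 2.83 ± 0.0716 (SE, adjusted p = 1.91e-23). All 4 libraries at 24 h lay far above all 4 in proliferation. The gene (ENSBTAG00000002473) lies on chromosome 7 at 17005585 to 17012649 in the authors' coordinates, with the build not given in the sources used. P4HA3, a subunit of collagen prolyl hydroxylase, went from 4.08, 5.04, 6.45 and 4.89 CPM to 32.2, 25.7, 32.8 and 28.9 CPM (2.57 ± 0.102, adjusted p = 1.83e-18). PER1, a repressor of the circadian clock, was at 9.18, 7.59, 8.16 and 7.93 CPM and then at 38.2, 37.3, 36.9 and 36.0 CPM (2.19 ± 0.0714). The insulin receptor adaptor IRS2 rose by 1.97 ± 0.116, from 6.48, 7.27, 6.53 and 6.68 CPM to 24.2, 26.8, 24.8 and 30.7 CPM. Groups overlapped for none of these genes, since the rule asked for that. The other rises named were those of EGR1 (2.24), FNDC1 (1.85), the metalloprotease ADAMTS6 (1.78), complement C3 (1.78), NTNG2 (1.68), SLC26A10 (1.57), CCDC3 (1.52), the retinal reductase DHRS3 (1.46), ESPNL (1.46), the adenylyl cyclase ADCY5 (1.46) and CCDC136 (1.45).

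IL1RL1, the receptor of interleukin 33, showed the largest fall. Its levels were 9.48, 9.21, 8.32 and 9.12 CPM in proliferation and 1.32, 1.85, 1.37 and 1.40 CPM at 24 h (log2 -2.60 ± 0.168, adjusted p = 1.54e-13). CEMIP, which acts in the breakdown of hyaluronan, dropped from 514, 438, 507 and 526 CPM to 100, 108, 99.7 and 97.2 CPM (-2.29 ± 0.0842, adjusted p = 2.21e-19). Every 24 h library was far below every proliferation library for this gene, which lies on chromosome 21 at 26633806 to 26792143. The sugar epimerase RENBP stood at 88.8, 90.1, 92.9 and 89.6 CPM and then at 21.8, 18.4, 20.7 and 20.6 CPM (-2.15 ± 0.0562). HMOX1, the haem oxygenase, fell by 1.61 ± 0.0702, from 36.4, 32.4, 33.4 and 33.9 CPM to 10.3, 11.7, 11.5 and 10.9 CPM. Further falls named were those of the membrane transporter FLVCR2 (-2.45), ID1 (-2.20), the lysosomal glycoprotein GPNMB (-1.73), UAP1L1 (-1.68), the ETS factors ETV4 (-1.62) and ETV5 (-1.38), GREM1 (-1.58), the lysosomal GTPase RRAGD (-1.55), PERP (-1.53), the tubulin TUBA4A (-1.50) and the lysosomal sulfamidase SGSH (-1.37). None of the 30 genes lost its call or changed sign under an alternative in which it was tested.

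**Figure D1:**
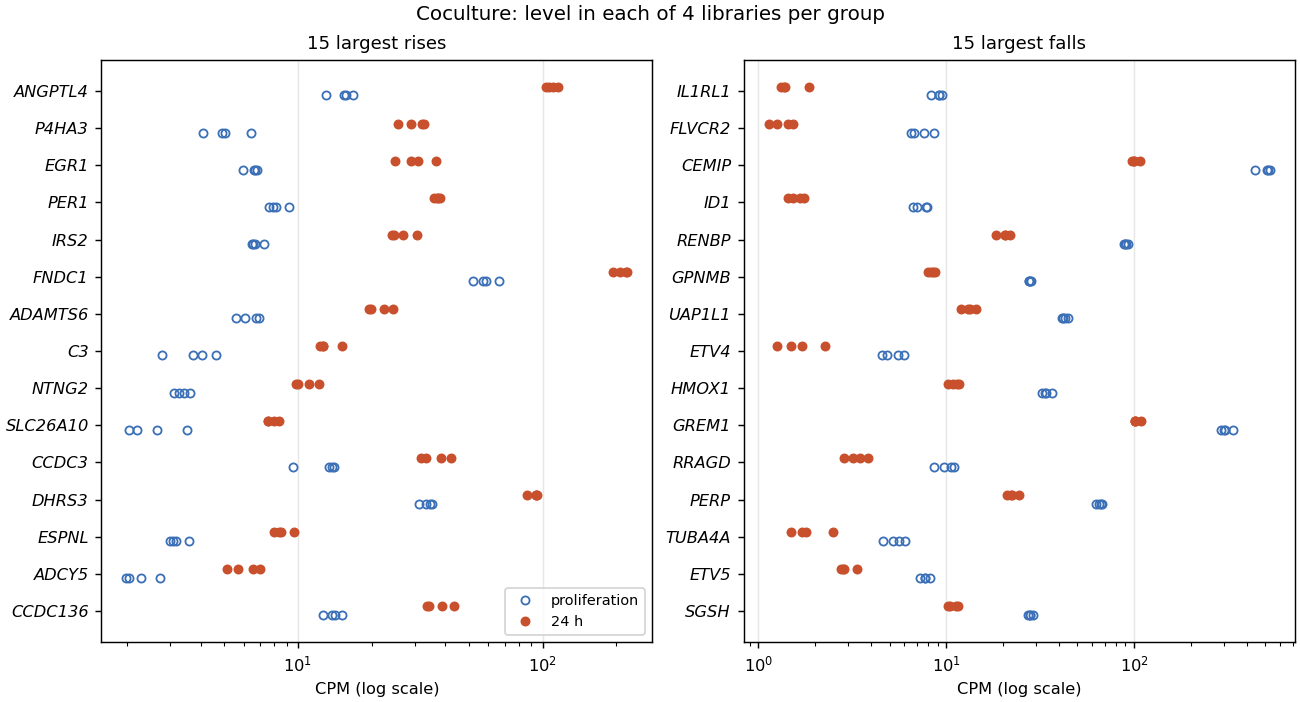
Level (CPM, log axis) of the 15 genes with the largest rises (left) and the 15 with the largest falls (right) in each of the 4 coculture libraries in proliferation (open circles) and at 24 h (filled circles). ANGPTL4 sits at 13.1 to 16.9 CPM in proliferation and 104 to 115 CPM at 24 h, and CEMIP at 438 to 526 and 97.2 to 108 CPM.

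The cyclin and kinase that drive entry into the cell cycle fell, and 3 inhibitors of cyclin-dependent kinases rose. CCND1, cyclin D1, read 58.6, 56.7, 56.7 and 59.7 CPM in proliferation and 19.7, 29.0, 21.9 and 23.5 CPM at 24 h (-1.29 ± 0.081, adjusted p = 7.53e-14). Its partner kinase CDK4 went from 54.1, 55.7, 55.7 and 52.8 CPM to 32.2, 31.7, 30.5 and 30.2 CPM (-0.81 ± 0.0573). CDKN2B, an inhibitor of CDK4, rose by 1.20 ± 0.089, from 11.3, 12.3, 12.2 and 11.5 CPM to 25, 26.5, 28.2 and 28.9 CPM. No library of one time overlapped those of the other for these 3 genes. CDKN1A, the p21 inhibitor, rose by 0.43 ± 0.0535, and CDKN1B, the p27 inhibitor, by 0.20 ± 0.0748 with overlapping groups (17.8 to 21.3 against 20.7 to 23.7 CPM). CDKN1C is not among the genes listed. Of 16 listed inhibitors and exit genes 5 rose, 2 fell and 9 were not called, where 21% of all genes rose and 22.2% fell. Of 35 listed genes of G1 cyclins, E2F factors and exit from the cycle 7 rose and 11 fell, with a median of -0.02. With library totals alone 3 of the 35 rose and 15 fell. The falls included CCND2 (-0.49), E2F1 (-0.44) and MYBL2 (-0.43).

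DNA replication genes were lower. Of 46 listed 29 fell and 1 rose, where 22.2% of all genes fell and 21% rose, with a median log2 change of -0.34 beside -0.01 over all genes. All 14 called genes among the 18 licensing and origin factors fell, MCM3 from 49.6 to 54.8 CPM to 30.9 to 37.0 CPM (-0.63 ± 0.0679) and MCM5 from 57.8 to 65.0 CPM to 36.4 to 43.3 CPM (-0.62 ± 0.0569). ORC1 fell by 0.63 as well. The enzymes that fell included the flap nuclease FEN1 (-0.64), POLE (-0.56) and the thymidine kinase TK1 (-0.49). The median over the list was -0.34, -0.20, -0.44 and -0.34 in 24 h replicates 1 to 4, below all proliferation libraries (-0.03 to 0.03), and nearest to them in replicate 2. Within lane 6 alone 21 genes fell, and without replicate 2 of the 24 h group 31 did. Over all 11937 genes 1592 and 2469 fell in these settings.

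Mitosis genes fell by less than replication genes at the median. Of 61 listed 32 fell and 1 rose (NDC80, 0.24), with a median of -0.21. LMNB1, lamin B1, fell by 0.46 ± 0.0645 and the mitotic kinase AURKA by 0.40 ± 0.0832, from 17.7, 20.2, 19.1 and 18.8 CPM to 12.7, 16.2, 14.5 and 14.4 CPM. MKI67, the proliferation marker Ki-67, stood at 155, 128, 123 and 143 CPM and then at 121, 152, 132 and 125 CPM, overlapping groups with no call (-0.05 ± 0.0787, adjusted p = 0.652). The median of the list was -0.25, -0.06, -0.29 and -0.20 in 24 h replicates 1 to 4, so the library rich in ribosomal RNA lay nearest to proliferation here also. The count of falls was 9 in lane 6 alone, 36 with lane 7 alone at 24 h, 13 with lane as a term, 49 with library totals alone, and 39 without replicate 2 of the 24 h group. Over all 11937 genes the falls in these settings numbered 1592, 2149, 1907, 4710 and 2469. The part that lane or the library rich in ribosomal RNA has in the count of mitosis genes was not tested.

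**Figure D2:**
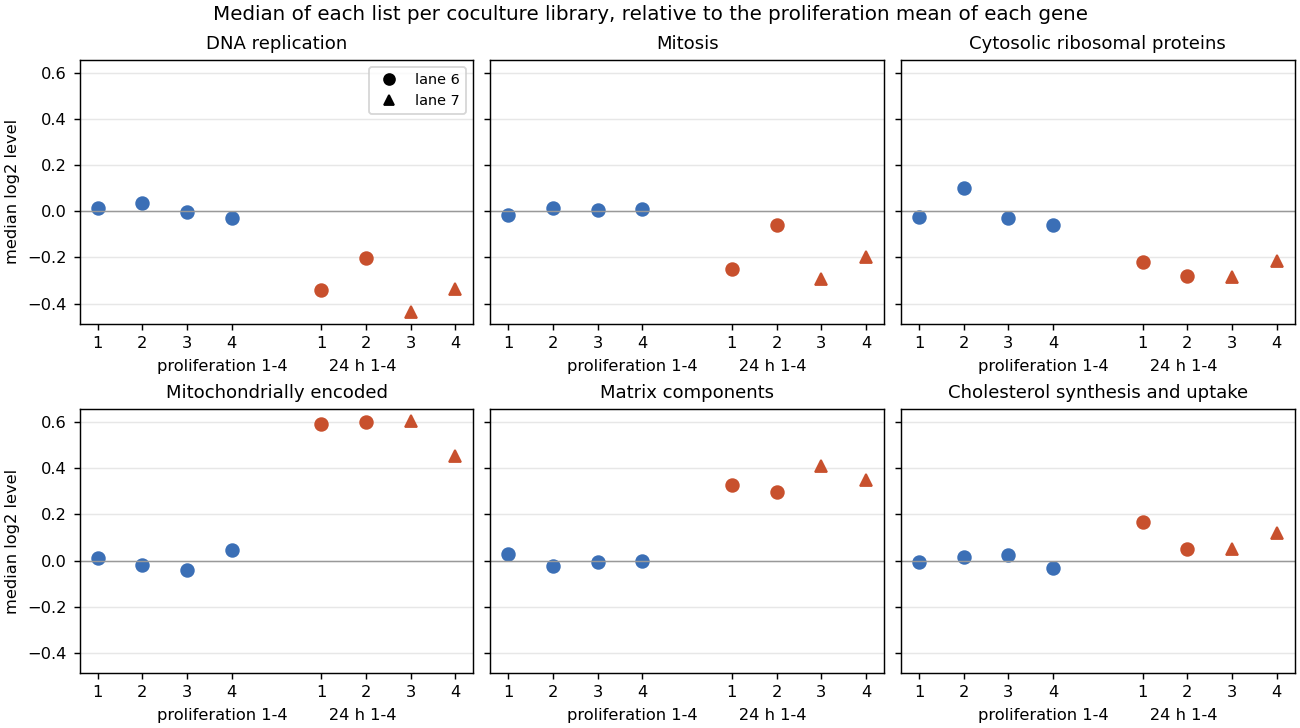
Median over the listed genes of 6 lists of the log2 level in each coculture library, relative to each gene's mean in proliferation (y axis, log2), by library (x axis; circles lane 6, triangles lane 7). In 24 h replicate 2 the mitosis median is -0.06 and the replication median -0.20, both nearer to proliferation than in the other 24 h libraries, while mitochondrially encoded genes lie at 0.45 to 0.61 in all 4.

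Targets and feedback genes of the ERK pathway, through which growth factors act, were lower or, for 9 genes, not called, with 1 exception. Of 18 listed 8 fell and 1 rose, DUSP1 (0.23), with a median of -0.24. SPRY4, a feedback inhibitor of receptor signalling, went from 2.40, 2.69, 3.92 and 3.58 CPM to 0.897, 0.742, 0.573 and 0.585 CPM (-2.13 ± 0.226, adjusted p = 5.87e-09). ETV4 was at 5.94, 4.87, 4.57 and 5.54 CPM and then at 1.26, 2.28, 1.49 and 1.71 CPM (-1.62 ± 0.178), and ETV1 fell by 0.87 ± 0.0671. Immediate early factors did not follow them: of 24 listed 10 rose and 5 fell, with a median of 0.14 (7 and 7 with library totals alone). EGR1, which growth factors induce within minutes, read 6.78, 5.98, 6.69 and 6.62 CPM in proliferation and 24.9, 36.6, 30.9 and 29.1 CPM at 24 h (2.24 ± 0.113, adjusted p = 5.34e-16). NR4A1 (0.61), FOS (0.54 ± 0.151) and NR4A2 (0.51) rose less, while FOSL1 (-0.93 ± 0.115), KLF4 (-0.64) and MYC (-0.20 ± 0.0547) fell.

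Genes downstream of TGF-beta and BMP were split: of 25 listed SMADs, feedback genes and targets 6 rose, 9 fell and 10 were not called (median 0.02). ID1 read 7.86, 7.78, 7.02 and 6.68 CPM in proliferation and 1.44, 1.54, 1.66 and 1.76 CPM at 24 h (-2.20 ± 0.186, adjusted p = 6.5e-11). ID3 dropped from 107, 112, 96.5 and 90.7 CPM to 40.4, 40.8, 36.0 and 40.5 CPM (-1.37 ± 0.0893), with no overlap for either gene. GREM1, a secreted BMP antagonist, fell by 1.58 ± 0.072, from 292, 300, 304 and 335 CPM to 101, 108, 101 and 101 CPM. SMAD6, an inhibitory SMAD, fell by 0.68 ± 0.104. Among those that rose, PMEPA1, a TGF-beta target that dampens the pathway, changed by 0.64 ± 0.0877 and SKIL, a repressor of SMADs, by 0.44 ± 0.0626. Of the ligands and receptors of TGF-beta and BMP 10 of 19 listed were higher and 1 lower, led by the activin receptor ACVR2A (0.78 ± 0.0727) and LTBP4 (0.74), which binds latent TGF-beta. Over all 44 listed genes of both pathways 16 rose and 10 fell (median 0.12; 9 and 15 with library totals alone).

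Few genes of muscle itself could be followed, and those did not move one way. Of 28 myogenic regulators 20 are listed; 5 rose and 8 fell, with a median of -0.13 (1 and 11 with library totals alone). SMARCD3, a chromatin remodelling subunit that works with MYOD1, read 61.3, 64.9, 65.5 and 59.9 CPM and then 125, 116, 126 and 128 CPM (0.97 ± 0.059, adjusted p = 3.37e-14), higher in all 4 libraries. HDAC9, a repressor of MEF2 factors, fell by 0.95 ± 0.109 from 36.9 to 41.6 CPM to 17.2 to 21.4 CPM, and MEF2C itself fell by 0.68 ± 0.116. ITGA7, a laminin-binding integrin chain of muscle, rose by 0.89 ± 0.0869 from 27.7, 31.8, 28.6 and 36.7 CPM to 57.2, 52.0, 62.6 and 59.8 CPM. The Notch target HES1 fell by 0.80 ± 0.0635. Of 53 sarcomere genes 14 are listed: 5 rose, with filamin C (FLNC, 0.75) and titin-cap (TCAP, 0.56) first, and 4 fell, with XIRP1 (-0.86) and the chaperone CRYAB (-0.74) first. ATP2A1, the calcium pump of fast muscle, was low at 0.431 to 1.01 CPM and then 1.03 to 1.73 CPM (1.14 ± 0.279, adjusted p = 0.00146), and MYH3 and MYMK are not among the genes listed. In these bulk samples fewer cells of a kind and less RNA per cell cannot be told apart.

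Extracellular matrix genes rose together. Of 60 listed matrix components 38 rose and 3 fell, with a median of 0.35 (31 and 7 with library totals alone), and none of the 20 collagens listed fell while 15 rose. COL1A1, the main chain of type I collagen, read 25666, 24853, 25336 and 25206 CPM in proliferation and 40192, 37668, 43098 and 39977 CPM at 24 h (0.67 ± 0.039, adjusted p = 1.44e-14). It took 2.69% ± 0.0368 of all counts in proliferation and 3.94% ± 0.331 at 24 h (SD, n = 4). Fibronectin, FN1, rose by 0.91 ± 0.0477 from 12258, 10491, 10803 and 11845 CPM to 20702, 20868, 22700 and 21247 CPM, and the basement membrane proteoglycan HSPG2 by 0.97 ± 0.087. FBLN5, needed for elastic fibres, went from 128 to 129 CPM to 222 to 242 CPM (0.88 ± 0.0464). The 60 genes together took 18.4% to 19.0% of counts in proliferation and 21.2% to 24.7% at 24 h, lowest of the 4 in replicate 2. Fibroblast markers share genes with them: of 21 listed 10 rose and 3 fell, where 21% of all genes rose and 22.2% fell. Of those that rose 6 are matrix genes counted above (COL1A1, COL3A1, POSTN, COL1A2, MFAP5 and FBLN1), so the 2 counts are not separate. Whether cells other than satellite cells had a part in the rise of matrix genes was not tested.

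Of 21 listed protease inhibitors, receptors and enzymes that modify or crosslink collagen 16 rose and none fell, among them the enzymes P4HA3, LOXL3 (0.67) and PLOD2 (0.47) and the secreted serpin SERPINF1 (1.10). LOX, the main lysyl oxidase, rose by 0.39 ± 0.0611 from 463, 421, 468 and 459 CPM to 597, 594, 602 and 578 CPM. Proteases were split, with 7 of 22 higher and 6 lower. After ADAMTS6 the metalloproteases ADAMTS10 (0.94) and ADAMTS9 (0.78) rose most. The membrane protease MMP14 read 458, 468, 467 and 478 CPM and then 293, 286, 302 and 291 CPM (-0.67 ± 0.0539), and urokinase, PLAU, fell by 0.66 ± 0.0421 from 94.9 to 102 CPM to 60.3 to 65.2 CPM. CTSK, a lysosomal collagenase, fell by 0.59. With library totals alone the 2 roles together had 12 rises and 10 falls, against 23 and 6 with TMM factors.

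Genes for building the cell's protein machinery were lower by small amounts. Of 78 listed genes of cytosolic ribosomal proteins 72 fell and none rose (median -0.26), RPL28 for instance from 424 to 486 CPM to 344 to 365 CPM (-0.35 ± 0.0496). Some of these symbols belong to more than 1 gene, and reads may be shared with near-identical copies. Of 37 genes of ribosome biogenesis 25 fell and none rose (median -0.18), with NOP10 (-0.71 ± 0.072) and NPM1, nucleophosmin (-0.49 ± 0.0431), lowest among single-copy symbols. Of 29 chaperones 23 fell and 2 rose (median -0.25). HSPH1 went from 143, 132, 140 and 133 CPM to 77.7, 82.5, 78.3 and 79.2 CPM (-0.78 ± 0.0442), and HSPA8 fell by 0.46 ± 0.0353. Replicate 2 of the 24 h group, rich in ribosomal RNA, did not stand apart in the ribosomal protein median (-0.22, -0.28, -0.28 and -0.22 in replicates 1 to 4).

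Respiratory chain genes of the nucleus and of the mitochondrial genome moved in opposite directions. Of 91 nuclear genes of oxidative phosphorylation and the TCA cycle 50 fell and none rose, with a median of -0.16. CYCS, cytochrome c, read 122, 133, 119 and 126 CPM and then 87.0, 93.2, 86.8 and 87.4 CPM (-0.50 ± 0.0454), and the coactivator PPARGC1B fell by 0.53 ± 0.123. All 13 protein-coding genes of the mitochondrial genome rose (median 0.56), CYTB from 883, 815, 843 and 886 CPM to 1434, 1420, 1404 and 1263 CPM (0.69 ± 0.0588). They took 1.60% to 1.70% of counts in proliferation and 2.14% to 2.36% at 24 h, with no overlap. This split was kept with library totals alone (76 nuclear genes fell, 13 mitochondrial genes rose). Whether RNA quality had a part in the mitochondrial share was not tested.

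**Figure D3:**
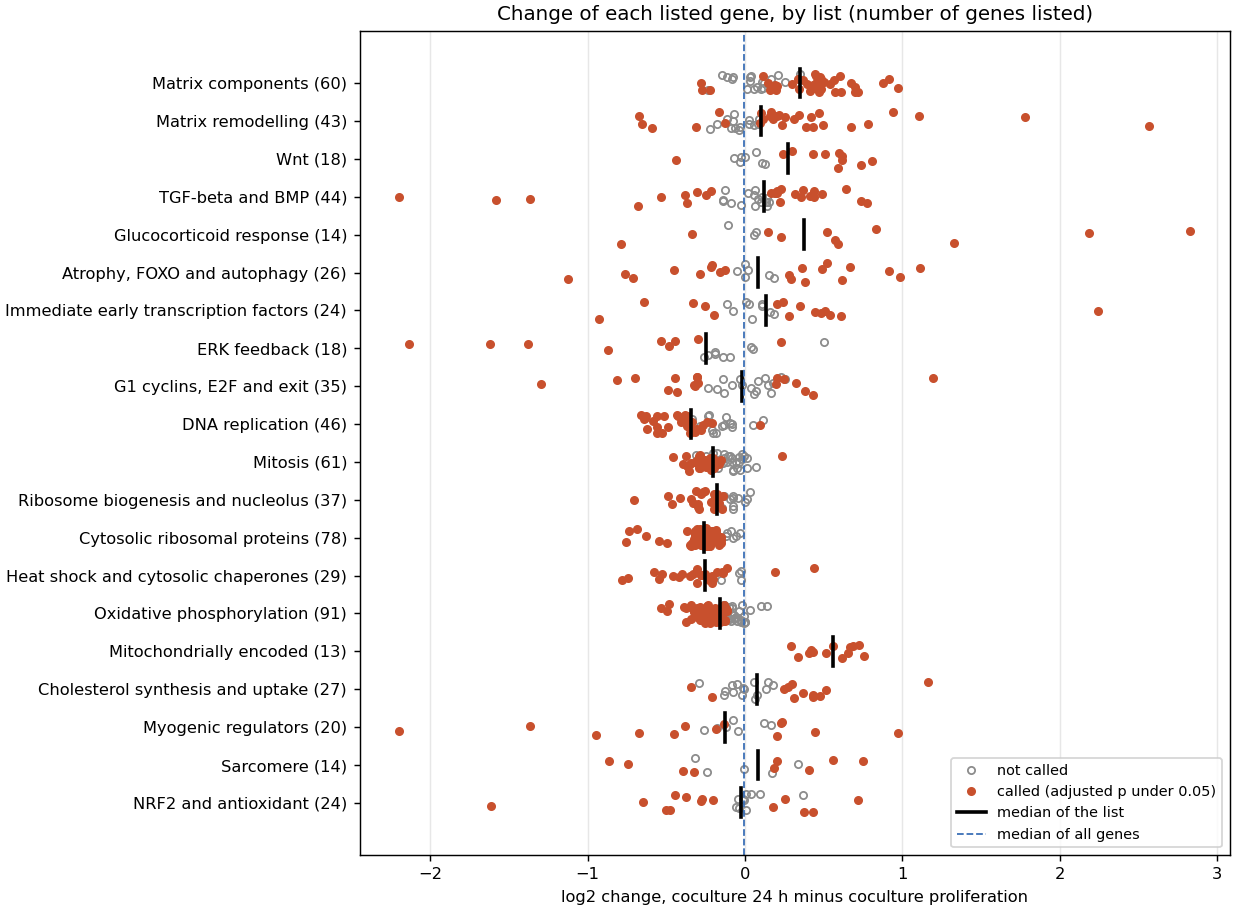
Log2 change from coculture proliferation to coculture 24 h (x axis) of every listed gene of 20 lists (rows, number of genes listed in brackets), filled where called and open where not, with the median of each list (black bar) and of all genes (dashed line, -0.01). Matrix components (0.35) and mitochondrially encoded genes (0.56) lie to the right, replication (-0.34), ribosomal protein (-0.26) and chaperone (-0.25) genes to the left, and the ERK feedback gene SPRY4 reaches -2.13.

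Genes that glucocorticoids induce were mostly higher. Of 14 listed 9 rose and 2 fell, with a median of 0.38 (7 and 2 with library totals alone). After ANGPTL4 and PER1 the largest rise was that of TSC22D3, also called GILZ, from 29.7, 28.3, 27.4 and 26.2 CPM to 72.4, 62.1, 70.9 and 75.5 CPM (1.33 ± 0.0553, adjusted p = 4.78e-18). FKBP5, a chaperone of the glucocorticoid receptor, read 13.7, 15.2, 17.4 and 17.4 CPM and then 27.3, 26.3, 29.4 and 29.4 CPM (0.83 ± 0.0796). Groups did not overlap for either gene. SGK1 (-0.34) and the metallothionein MT2A (-0.79 ± 0.246) fell, and the receptor gene NR3C1 was not called (0.07). PER1 stood out among clock genes. Of 18 listed 3 rose, the others being NFIL3 (0.29) and PER2 (0.28), and 4 fell, RORA most (-0.75 ± 0.192). As counts these are near the shares over all genes, 21% higher and 22.2% lower.

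Genes of atrophy, FOXO factors and autophagy were split: of 26 listed 11 rose and 9 fell (9 and 11 with library totals alone). TXNIP, a brake on glucose uptake, read 64.0, 58.2, 65.9 and 67.1 CPM and then 145, 130, 138 and 137 CPM (1.11 ± 0.0794). FOXO1 rose by 0.92 ± 0.0847 and FBXO32, the muscle ubiquitin ligase atrogin-1, by 0.98 ± 0.189 from 1.79 to 2.45 CPM to 2.75 to 4.91 CPM. The autophagy receptor SQSTM1 went from 287, 277, 290 and 290 CPM to 175, 169, 181 and 175 CPM (-0.71 ± 0.0418), and PIK3IP1 (-1.12) and cathepsin B, CTSB (-0.45), fell.

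Genes of cholesterol synthesis rose slightly or were not called in coculture. Of 27 listed 10 rose and 2 fell, and the median was 0.08, which turns to -0.05 with library totals alone (9 and 5). The sterol steps held 6 of the rises with none lower among 11: the sterol demethylase CYP51A1 read 31.2, 34.2, 36.1 and 32.8 CPM and then 50.2, 45.5, 47.1 and 49.2 CPM (0.52 ± 0.0567). SREBF2, the factor that drives the pathway, rose by 0.48 ± 0.0473. HMGCS1, the first committed enzyme, stood at 60.1, 58.9, 58.7 and 57.3 CPM and then at 63.0, 60.0, 59.2 and 63.8 CPM, overlapping and not called (0.07 ± 0.052, adjusted p = 0.317). INSIG1, which holds back the pathway when sterols are plentiful, was not called (-0.14 ± 0.101). Lipid storage and transport genes differed among themselves: the droplet coat PLIN2 read 73.7, 70.3, 71.3 and 70.3 CPM and then 151, 136, 141 and 146 CPM (1.01 ± 0.0469), while the fatty acid carrier of muscle FABP3 fell by 0.89 ± 0.0999.

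Signals to neighbouring cells changed in both directions. Of 18 Wnt genes 10 rose and 1 fell (median 0.27), the receptor FZD2 (0.81 ± 0.111) and the secreted antagonist SFRP2 (0.74 ± 0.0434) most. Of 36 growth factor and IGF genes 13 rose and 7 fell (7 and 13 with library totals alone). FGF2, a growth factor for satellite cells, rose by 0.62 ± 0.0766, from 21.7 to 23.8 CPM to 32.0 to 38.4 CPM. The macrophage growth factor CSF1 read 242, 230, 237 and 243 CPM and then 118, 118, 122 and 119 CPM (-0.99 ± 0.0705), lower in all 4 libraries. IGFBP5 was not called (2.92 to 3.60 and 2.23 to 3.95 CPM, -0.12 ± 0.178). Of 28 cytokine and NF-kB genes 9 rose and 3 fell, with C3, TNFAIP6 (1.20 ± 0.14) and NFKBIZ (1.12 ± 0.102) highest and the cytokine signalling inhibitor SOCS3 lowest (-1.09 ± 0.098). Among the 9 cytokines and chemokines themselves 1 rose and 1 fell. Of the 19 NF-kB, feedback and target genes 8 rose and 2 fell.

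The change over the same 24 h in monoculture served to show which of these changes differ with fibroblasts present. There 8179 genes (68.5%) were called, and 1743 rises and 1557 falls were called in both cultures, which is 64.0% of the calls in coculture and 40.3% of those in monoculture. Another 605 genes were called in opposite directions in the 2 cultures. The difference of the 2 changes was itself called for 6026 genes (50.5%), 2896 (24.3%) more positive and 3130 (26.2%) more negative in coculture. A code in the labels, of unstated meaning, is 2 in both coculture groups and changes from 2 to 1 in monoculture, and 2 of the coculture libraries at 24 h lie in another lane. The difference between cultures and that code cannot be told apart. With the lane 6 libraries alone 5271 genes were called, 5080 of them in the same direction as with all libraries.

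Most cholesterol genes fell in monoculture, and in coculture 15 of 27 were not called, near the share over all genes (6778 of 11937). In monoculture 20 of the 27 fell and 3 rose (median -0.39), where 4087 of all 11937 genes fell and 4092 rose. The difference was called positive for 19 genes and negative for 2. HMGCS1 in monoculture fell from a mean of 160 CPM to 57.5 CPM (-1.48), so that coculture in proliferation, at 58.8 CPM, already stood near the level monoculture reached at 24 h (difference 1.54 ± 0.0725, adjusted p = 1.24e-15). The desaturase SCD showed the same order, 41.0 and 11.2 CPM in monoculture against 13.4 and 10.5 CPM in coculture (1.52 ± 0.148), as did the matrix proteoglycan ASPN with 26.5 and 9.93 against 8.86 and 9.95 CPM (1.59 ± 0.133). Of the 60 matrix components 38 had a more negative change in coculture and 8 a more positive one: COL1A1 rose by 1.21 in monoculture and by 0.67 in coculture, from 2.00% ± 0.107 and 2.69% ± 0.0368 of counts. At 24 h it took 4.06% ± 0.168 and 3.94% ± 0.331, which lie within each other's spread.

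**Figure D4:**
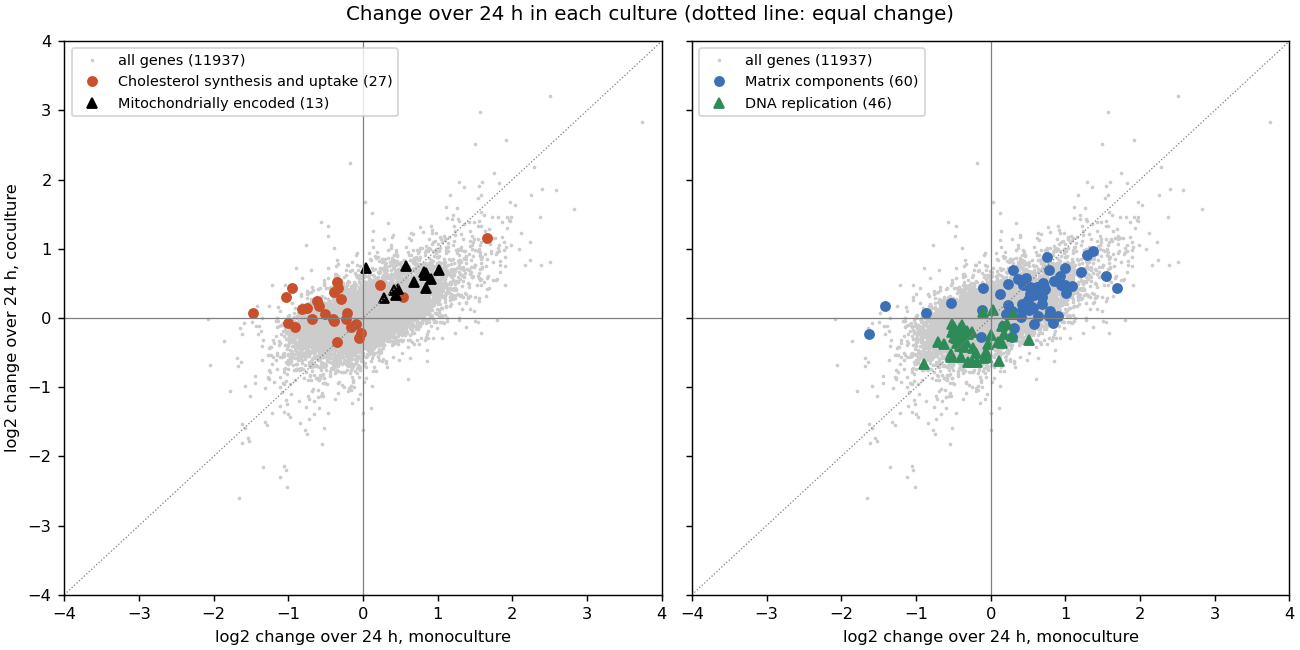
Log2 change over 24 h in coculture (y axis) against that in monoculture (x axis) for all 11937 genes (grey) and 4 lists (coloured), with the line of equal change dotted. Most cholesterol genes lie left of 0 and near or above 0 on the y axis (medians -0.39 and 0.08), and most matrix components lie right of 0 and below the dotted line (medians 0.57 and 0.35).

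Among single genes EGR1 had the most positive difference (2.42 ± 0.223, adjusted p = 1.53e-09): monoculture stayed at 3.08 and 2.69 CPM, while coculture went from 6.52 to 30.4 CPM. CCDC3 rose in coculture from 13.7, 13.4, 14 and 9.54 CPM to 42.3, 32.0, 33.3 and 38.4 CPM and was not called in monoculture (0.12; difference 1.40 ± 0.191). PDE4B (1.70 ± 0.508), ADAMTS5 (1.52) and GCA (1.44) fell in monoculture and were not called in coculture. The fall of PDE4B, from a mean of 1.43 CPM to 0.592 CPM in monoculture, rests on few reads. On the negative side ETV4 fell in coculture and read 4.08 and 4.03 CPM in monoculture (-1.62 ± 0.24, adjusted p = 2.59e-06), and FLVCR2 fell in both, more in coculture (-1.44 ± 0.245). NUAK2 fell in coculture and rose in monoculture (-1.35 ± 0.082). TGFBI, IGSF9, PTPRM and SLC26A10 rose in both cultures and less in coculture (-1.25 to -1.40), and ERP27 fell in coculture (-1.30) and was not called in monoculture (0.11), a difference of -1.42 ± 0.229. By contrast GREM1 fell by 1.58 in each culture, with a difference of 0.00 ± 0.0938.

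**Figure D5:**
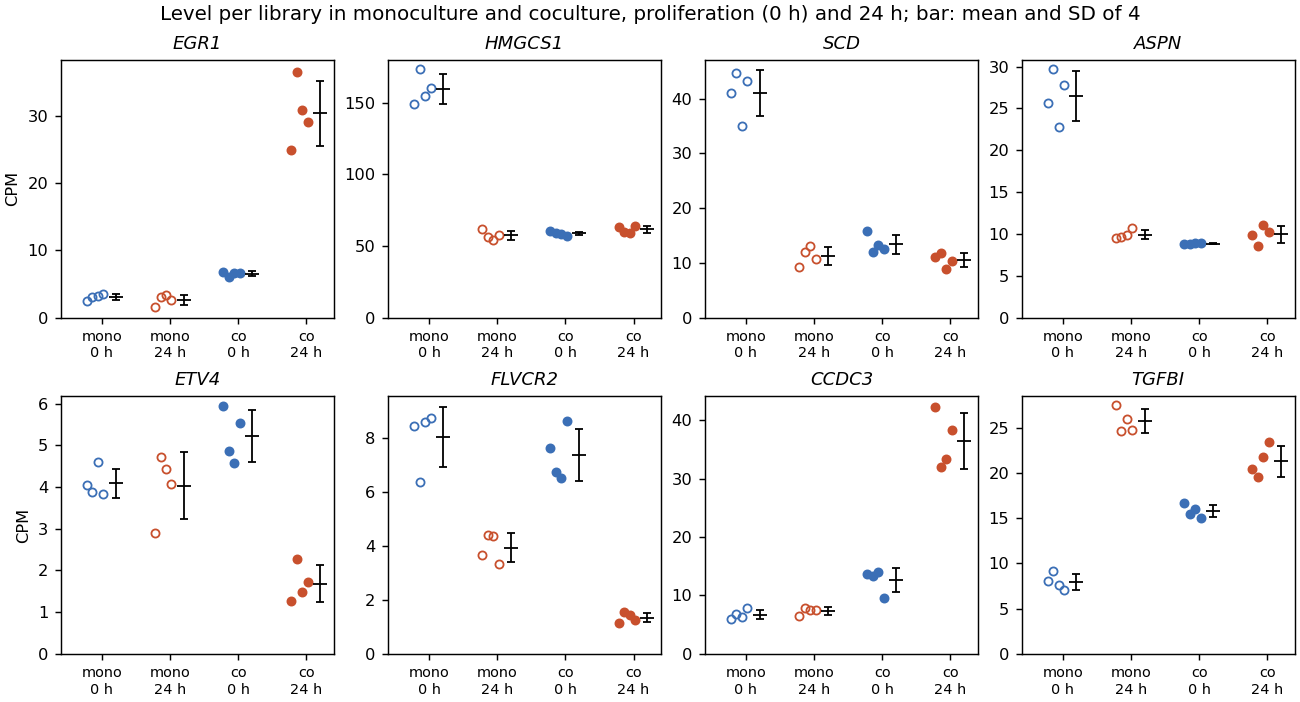
Level (CPM, axes from 0) of 8 genes whose change over 24 h differed between cultures, in each of 4 libraries of monoculture (open) and coculture (filled) in proliferation (0 h) and at 24 h, with mean and SD beside the points. EGR1 rises in coculture alone (6.52 to 30.4 CPM), and HMGCS1 falls in monoculture (160 to 57.5 CPM) to the level of both coculture groups.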

How the data were processed

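The deposited table holds raw counts, whole reads per gene and library. Per the submitters' processing notes the tools were FastQC, STAR, RSEM and DESeq2 (versions not stated), so the counts may be RSEM estimates rounded to integers. The build was not given in the sources used here, and symbols and coordinates come from the authors' deposited table of comparisons. Of 36 library columns, 12 have names outside the labels and stayed out. In R 4.3.3, edgeR 4.0.16 with TMM factors fitted 1 mean per group to all 24 libraries (18 residual degrees of freedom; filterByExpr removed 0 genes). P-values of quasi-likelihood F tests were adjusted after Benjamini and Hochberg for all 11937 genes, with calls at an adjusted p under 0.05. The SE is the log2 change over the square root of F. The test was checked on simulated data. Levels are CPM with TMM factors and are not corrected for gene length.

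The rule named the 15 largest rises and falls among called genes with a symbol of their own, at least 5 CPM on average at the higher time, and libraries that do not overlap, the 8 largest differences from monoculture each way, up to 4 members each way per list or role, and fixed genes. The members, the 42 lists and the rule were chosen with earlier results of these data known, so the lists lend no independent support. Counts of coculture calls within a list are to be read beside the shares over all genes, 21% higher and 22.2% lower. Counts with library totals alone are to be read beside those over all 11937 genes, 1303 higher and 4710 lower. DESeq2 1.42.0, other scaling, filters, lanes and left-out libraries were alternatives. No promoter sequence was used, and some genes the rule covers are not reported here.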

Additional observations from a re-analysis of the deposited data

Results flagged for a closer look

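In each group of 4 coculture libraries, the genes named by rule and the library measures were checked for a single library far from the other 3 (Dixon's gap over range). Of 110 groups 7 were flagged, and chance flags about 1 group in 20. Nuclear ribosomal RNA took 4.07% of counts in 24 h replicate 2. That library also held the highest level of its group for IL1RL1 (1.85 CPM) and GREM1 (108 CPM) and the lowest for DHRS3 (86.3 CPM). Other libraries gave the rest: C3 at 15.1 CPM in 24 h replicate 1, ID3 at 36.0 CPM in 24 h replicate 3, and CCDC3 at 9.54 CPM in proliferation replicate 4. None of these genes lost its call without the library named for it.

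The change over 24 h differed between coculture and monoculture, by the test of the difference itself, for the 16 genes the rule named. It was more positive in coculture for EGR1 (log2 2.42), PDE4B (1.70), ASPN (1.59), HMGCS1 (1.54), SCD (1.52), ADAMTS5 (1.52), GCA (1.44) and CCDC3 (1.40). It was more negative for ETV4 (-1.62), FLVCR2 (-1.44), ERP27 (-1.42), IGSF9 (-1.40), NUAK2 (-1.35), PTPRM (-1.27), SLC26A10 (-1.25) and TGFBI (-1.25). A code in the labels that changes in monoculture only cannot be told apart from the culture here.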

How the results depend on the processing

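The 5159 calls at 24 h numbered 5171 with DESeq2's size factors, 5014 with DESeq2, 5458 with a fit of the groups compared, 4696 at 5 CPM or more, and 3814 with lane as a term. With library totals alone 1303 genes were higher and 4710 lower. Lane 6 alone gave 1592 lower genes, and an alternative chosen after seeing the data, lane 6 without the library rich in ribosomal RNA, gave 2044 calls (1167 higher, 877 lower) from fewer libraries. Leaving out each coculture library in turn gave 4480 to 4807 calls (2181 to 2352 higher, 2299 to 2472 lower), and for the difference from monoculture, where monoculture libraries were left out too, 5529 to 5906 (2674 to 2826 positive, 2855 to 3081 negative). With a replicate block there were 5074 and 5929 calls. Of 154 genes named, 1 changed sign, FBLN1 (-0.00881 with library totals alone), and calls were lost for 8 in lane 6 alone, 19 in lane 6 without the library rich in ribosomal RNA, 7 with lane as a term and 6 with library totals alone. Same-numbered coculture libraries did not deviate together (correlations -0.12 to -0.03), and 0 of 4 correlated best with their own number. Genes under about 5 CPM, such as SPRY4, FBXO32, ATP2A1 and, in monoculture, PDE4B, rest on few reads. Genes with under 6 counts in any library are not among those listed.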

Other observations

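Other lists held changes that the comparisons above do not describe. Among 24 NRF2 and antioxidant genes 5 rose and 9 fell. NQO1, a quinone reductase, read 85.2, 99.7, 84.0 and 84.5 CPM in proliferation and 144, 133, 153 and 153 CPM at 24 h (0.72 ± 0.086), while HMOX1 and the ferritin chains FTL and FTH1 fell. FTL went from 1143, 1228, 1123 and 1102 CPM to 716, 702, 745 and 765 CPM (-0.65 ± 0.057), and FTH1 fell by 0.50 ± 0.0629. In monoculture FTL changed by -0.10, and the difference was -0.55 ± 0.0804 (adjusted p = 1.95e-06). Among 21 p53 targets 9 rose and 3 fell (7 and 8 with library totals alone), with TP53INP1 (0.87), PLK2 (0.70) and BBC3 (0.66) highest and GDF15 (-0.51) and TIGAR (-0.50) lowest.

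Of 25 glycolytic and lactate genes 1 rose and 11 fell, HK2 by 0.30 and PFKFB3 by 0.60, while 9 of 15 other hypoxia targets rose and 3 fell. Over both roles the falls numbered 14, and 4 within lane 6 alone, where 1592 of all 11937 genes fell. Of 31 interferon response genes 3 rose and 7 fell, where 21% of all genes rose and 22.2% fell. With library totals alone 1 rose and 13 fell, where 1303 of all 11937 genes rose and 4710 fell. Actin and YAP target genes were split, 13 higher and 10 lower of 37 (5 and 18 with library totals alone), and ANKRD1 (-0.40) and ACTB (-0.29) were among those that fell. Of 17 markers of bone and cartilage 6 are listed, of which 3 rose, 1 fell and 2 were not called. Their summed level was 307 to 317 CPM in proliferation and 288 to 314 CPM at 24 h. RUNX2, a bone transcription factor, rose from 31.9, 27.3, 29.5 and 29.4 CPM to 55.9, 56.5, 53.4 and 50 CPM (0.88 ± 0.0823). Of 19 leukocyte markers 2 are listed, neither of them called. Of 13 adipocyte markers 4 are listed, with 1 higher, FABP4 by 0.37, and 3 not called.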
